A study of Arabidopsis thaliana with 24 samples.

Results

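The change in transcript levels between 0.5 h and 1 h of genotoxic treatment was compared between roots and shoots of Arabidopsis thaliana. The quantity described is the tissue difference, (roots 1 h minus roots 0.5 h) minus (shoots 1 h minus shoots 0.5 h), and it addresses whether the early change of the shoots was absent from the roots, or shared and smaller. It uses 8 of the 24 arrays of a time course, namely all arrays of both tissues at 0.5 h and 1 h, chosen by their labels. All plants were of the accession Col-0, a standard laboratory strain without a transgene or mutation named in the labels. They were grown on rafts over liquid MS medium, a mineral medium, and were given bleomycin at 1.5 µg/ml together with mitomycin at 22 µg/ml from day 16. Treatment began 3 h into a light period of 16 h, so that the groups of 0.5 h lay 3.5 h and the groups of 1 h lay 4 h after lights on. Length of treatment and hour of day therefore changed together and cannot be told apart, although roots and shoots shared both. The 4 groups were shoots at 0.5 h, shoots at 1 h, roots at 0.5 h and roots at 1 h, with 2 arrays each. Plants without the drugs were not analysed here. No source used here says whether both arrays of a group stem from different cultures or plants, so a p-value reflects the spread of these arrays alone, and that spread may be technical.

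Bleomycin breaks DNA strands and mitomycin joins them by crosslinks, and plant cells answer such lesions with the transcription of repair and cell cycle genes. Transcripts of plants also move within minutes for other reasons, among them touch and wounding, a change of light, and the supply of sugar, which leaves make and roots import. A starved cell induces genes for autophagy and for the breakdown of amino acids, under control of the SnRK1 kinase, and these genes are quickly turned off again when sugar is at hand. A tissue difference is positive where a transcript fell in shoots and did not fall as far in roots, or rose further in roots. It is negative where a transcript rose in shoots and did not rise as far in roots, or fell further in roots.

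The labels of the tissues were borne out by marker genes. The summed signal of 3 leaf photosynthesis genes, LHCB4.1, LHCB4.2 and RCA, was 17075 to 19724 on the 4 shoot arrays and 309 to 481 on the 4 root arrays. That of 3 root genes, PYK10, EXPA7 and EXPA18, was 399 to 619 on shoot arrays and 3247 to 3551 on root arrays. PYK10 made up most of this sum, with 362 to 594 in shoots and 3193 to 3480 in roots. The others were low, EXPA18 with 14.6 to 21.3 in shoots and 29.9 to 42.2 in roots, and EXPA7 with 1.31 to 14.9 and 23.4 to 30.9. None of these 6 genes passed the test of the tissue difference. The remaining listed markers had no named probe set. Values of both arrays of a group differed by a median of 0.16 and 0.12 on the log2 scale in shoots at 0.5 h and 1 h, and by 0.10 and 0.11 in roots. Array signals carry no read depth, and the number of arrays limits the precision. Levels and changes below are signals or differences of log2(signal + 16), each change is given with its standard error, and adjusted p-values are from limma.

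Most of the early change of the shoots was not detected in roots, and for many transcripts the difference between the tissues itself passed the test. Of 22746 probe sets, 745 (3.28%) passed the test of the tissue difference at an adjusted p below 0.05, of which 479 (2.11%) were positive and 266 (1.17%) negative. In shoots alone 1992 probe sets passed (8.76%), with 947 rises (4.16%) and 1045 falls (4.59%), whereas in roots alone 107 passed (0.47%), with 47 rises (0.207%) and 60 falls (0.264%). At an unadjusted p below 0.05, 3013 probe sets passed for the tissue difference, 4722 for shoots and 1039 for roots. Without any change, a share of 0.05 of the 22746 would be expected to pass, and the root count does not exceed that share. In 666 of the 745 the shoot change was the larger one, and in 79 the root change. By direction, 437 combined a positive tissue difference with a called fall in shoots and 229 a negative one with a called rise in shoots. A called rise in roots stood behind 23 positive differences and a called fall in roots behind 25 negative ones. Roots and shoots had the same standard error by construction of the fit (median 0.139), and that of the tissue difference was larger (median 0.196), so the smallest fold called was 1.35 for the tissue difference, 1.18 for shoots and 1.28 for roots. The count of 745 fell to 490 without the first shoot array at 1 h, and to 491 and 483 without the first and the second root array at 1 h. All 745 kept their sign whichever of the 8 arrays was left out, which their selection on these same arrays made likely beforehand. The count of 107 in roots was 25 without the second root array at 0.5 h, and 40 and 44 without the first and the second root array at 1 h. The count of 1992 in shoots was 1197 without the first shoot array at 0.5 h, and 1175 and 1229 without the first and the second at 1 h. In whole tissues, fewer cells of a type and less RNA per cell cannot be told apart, which touches every change given here.

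**Figure D1:**
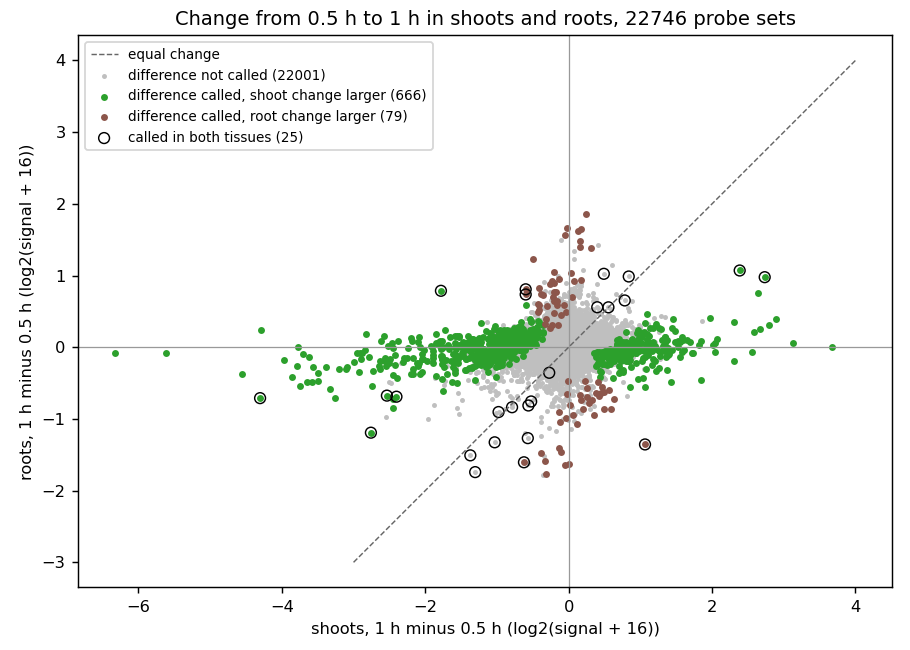
Change from 0.5 h to 1 h of 22746 probe sets, shoots on the horizontal and roots on the vertical axis, both in log2(signal + 16), with 2 arrays per tissue and time. Green and brown points passed the test of the tissue difference with the larger change in shoots (666) or in roots (79), circles mark the 25 probe sets called in both tissues, and the dashed line marks equal change. Passing points lie off that line by their selection, and over the 1992 probe sets called in shoots the changes correlate with r = 0.371.

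The 1992 probe sets called in shoots were next sorted by what the roots did. Only 25 were called in both tissues, 21 of them the same way (7 rises and 14 falls) and 4 in opposite directions. Of the 1967 others, 1682 had a root change whose 95% interval lay within 1.5-fold of no change, and 285 had a wider interval. That margin is 0.585 on the log2 scale. The shoot changes of the 1992 had a median size of 0.63, and 550 of them were below 0.5, less than the margin. An interval within it therefore need not exclude a root change as large as that of the shoots. The tissue difference passed in 538 of the 1682 and in 118 of the 285. In these 656 probe sets the root change did not pass and the difference itself did. That speaks to an unequal change, and does not separate an absent from a smaller root change. For the remaining 1311 neither the root change nor the tissue difference passed. For these the data do not separate an absent, a smaller and an equal root change. Since the shoot arrays chose these probe sets and also enter the tissue difference, these counts are a description. Among all probe sets 87.87% had a root interval within 1.5-fold, against 84.49% of those called in shoots. The count of 1682 was 968 without the first shoot array at 0.5 h, and 971 and 1008 without the first and the second at 1 h.

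The root changes of probe sets called in shoots leaned slightly towards the direction of the shoots. Turned so that the shoot change is positive, the root change had a median of 0.04 on the log2 scale (quartiles -0.05 and 0.13), against a median size of 0.63 in shoots. It had the sign of the shoot change in 61.85% of these probe sets, beside 52.81% over all probe sets, whose median was 0.01. Rises and falls in shoots were alike in this, with 62.94% and 60.86%. Across the 1992 probe sets the changes of the tissues correlated with r = 0.371 (rho = 0.331), and across all 22746 with r = 0.149 (rho = 0.0845), values that describe probe sets of the same 8 arrays, which are no independent replicates.

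The lean was larger where the shoots had fallen far. Among the 83 probe sets that fell by at least 2 in shoots, with a median of 2.56, the root change in the same direction had a median of 0.22 (quartiles 0.09 and 0.38), and 85.54% shared the sign. Among 172 falls of 1 to 1.5 the root median was 0.10, among 508 falls of 0.5 to 1 it was 0.03, and among 209 smaller falls it was 0.00. The tissue difference passed in 79 of the 83 strongest falls, and 4 of them were also called falls in roots. For rises no such order was seen over the well-filled classes, with a root median of 0.04 among 341 rises below 0.5, 0.03 among 489 rises of 0.5 to 1 and 0.01 among 84 rises of 1 to 1.5. Only 17 rises of 1.5 to 2 and 16 of at least 2 were called, with root medians of 0.08 and 0.17. Over both directions, the root median was 8.53% of the shoot change among the 99 changes of at least 2.

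**Figure D2:**
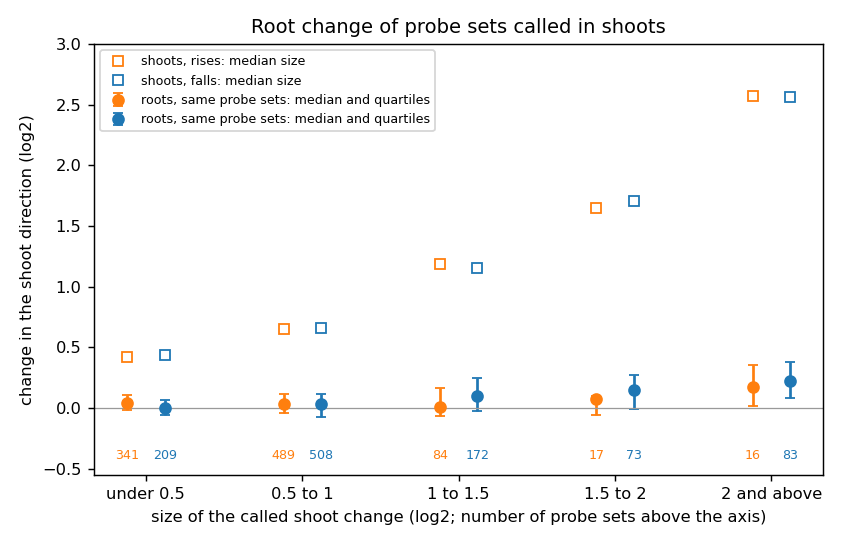
Probe sets called in shoots, grouped by the size of the shoot change (horizontal axis, log2) and by direction, with the number of probe sets written above the axis. Squares are the median shoot change and circles the median root change in the shoot direction with its quartiles (vertical axis, log2). Root medians reach 0.22 for the 83 strongest falls while the shoot median there is 2.56.

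The falls gave the strongest tissue differences. Named genes are those with a probe set of their own, and 383 of 13355 genes passed (2.87%), 255 positive (1.91%) and 128 negative (0.958%), led by shoots in 345 and by roots in 38. Most are known in the annotation by locus alone, and no role is given for those. AT2G20670 had signals of 1667 and 1598 in shoots at 0.5 h and of 4.51 and 4.68 at 1 h, while its 4 root signals lay at 60.3, 139, 96.4 and 77.6. It was thus far above the roots at 0.5 h and below every root array at 1 h, and its tissue difference of 6.24 ± 0.34 (adjusted p = 1.39e-08) was the largest among named genes. The root change was -0.09 ± 0.24. From the root mean of 92.8 at 0.5 h, a fall as far as that of the shoots could not be reached on this scale. Even a complete loss of the root signal would have left a positive tissue difference. AT1G23390 went from 2452 and 1960 to 162 and 127 in shoots, and stood at 250.1 and 292 in roots at 0.5 h and at 227 and 219.5 at 1 h. The shoot groups did not overlap and ended below the root level, a shoot change of -3.79 ± 0.13 beside a root change of -0.26 ± 0.13, which gave a tissue difference of 3.53 ± 0.19 (adjusted p = 1.39e-08). AT3G15450 fell from 3650 and 3904 to 283 and 302 in shoots, whereas the roots kept signals of 1780 and 2067 at 0.5 h and 1849 and 1650 at 1 h. Its root groups overlapped, and the tissue difference was 3.49 ± 0.25 (adjusted p = 1.98e-07).

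Several of these transcripts kept clear signals in roots. AT2G24550 had shoot signals of 345 and 368 at 0.5 h and 32.2 and 22.7 at 1 h, and root signals of 489.6 and 613 at 0.5 h and 488 and 395 at 1 h. The roots thus began above the shoots, and at 1 h both root arrays lay below both at 0.5 h by a small margin, with a root interval from -0.62 to 0.01 and a tissue difference of 2.80 ± 0.21. AT4G27280 stood at 502 and 470.2 in shoots at 0.5 h and at 37.3 and 59.2 at 1 h, beside 366 and 411 and then 343 and 322 in roots. Its tissue difference of 2.77 ± 0.57 had the widest error of the 12 largest and did not pass without the first shoot array at 1 h (2.53, adjusted p = 0.0565). AT5G61590, listed as DEWAX for decrease wax biosynthesis, fell from 956 and 1146 to 102 and 59.3 in shoots, with root signals of 201 and 237 and then 155 and 180.0. Both root arrays at 1 h lay below both at 0.5 h, yet the root change of -0.35 ± 0.16 did not pass, and the tissue difference was 3.14 ± 0.22. AT5G19120 was similar, with a tissue difference of 3.03 ± 0.26 and a root change of -0.47 ± 0.18 that did not pass (adjusted p = 0.779). The other genes among the 12 largest positive differences were AT3G62950, AT3G07350, AT2G25200, AT4G33666 and AT4G10910, at 2.65 to 2.83. Of these, AT3G62950 and AT4G10910 had root signals of no more than 2.27 and 4.01 on any of the 4 arrays. A fall like that of the shoots could not have been seen there. Nor could AT3G07350, AT2G25200 and AT4G33666 have fallen in roots as far as in shoots on this scale. Their root means at 0.5 h were 101, 32.8 and 33.7, beside shoot falls of 3.09, 2.88 and 2.57.

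The rises were fewer and smaller, and the strongest began from low signals in the roots. AT2G15020 rose from 21.8 and 21.8 to 504 and 433 in shoots, with root signals from 0.317 to 0.431. The tissue difference of -3.68 ± 0.23 (adjusted p = 3.99e-08) was the largest negative one among named genes, and the root array signals left no room to tell a level from background. AT3G44450 rose from 50.7 and 41.4 to 417 and 406 in shoots. Its root signals were 11.02 and 11.95 at 0.5 h and 16.1 and 20.2 at 1 h, which do not overlap, but the root change of 0.31 ± 0.11 did not pass (adjusted p = 0.597), and the tissue difference was -2.48 ± 0.16. AT3G15310 and AT2G27420 rose in shoots by 3.13 and 2.55 with no root signal above 6.17, and had tissue differences of -3.07 ± 0.24 and -2.62 ± 0.22.

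Other rises concerned transcripts that the roots held at the same level or above. AT2G44940 went from 33.0 and 34.7 to 252 and 212 in shoots, beside 113 and 138 and then 97.3 and 119 in roots. The shoots thus passed from below to above the roots, with a tissue difference of -2.50 ± 0.24 (adjusted p = 4.21e-06). AT1G76240 began alike in both tissues, at 75.03 and 82.8 in shoots and 77.0 and 78.8 in roots, and ended at 345 and 393 in shoots and 90.6 and 70.0 in roots. The tissue difference was -1.99 ± 0.27 and the root change 0.03 ± 0.19. AT5G54130 gave a like picture, with 96.6 and 66.9 and then 414 and 355 in shoots against 114 to 125 over the 4 root arrays, and had a tissue difference of -1.98 ± 0.23. AT4G33040 had 24.0 and 17.9 and then 119.5 and 108 in shoots against 34.8 to 47.5 in roots, with a tissue difference of -1.79 ± 0.26. AT2G19650, AT5G42760, AT1G78170 and AT2G36630 completed the 12 largest negative differences, at -1.95 to -1.69, and had root signals below 20 on every array. AT2G36630 did not pass with a pseudocount of 1 (adjusted p = 0.0912).

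**Figure D3:**
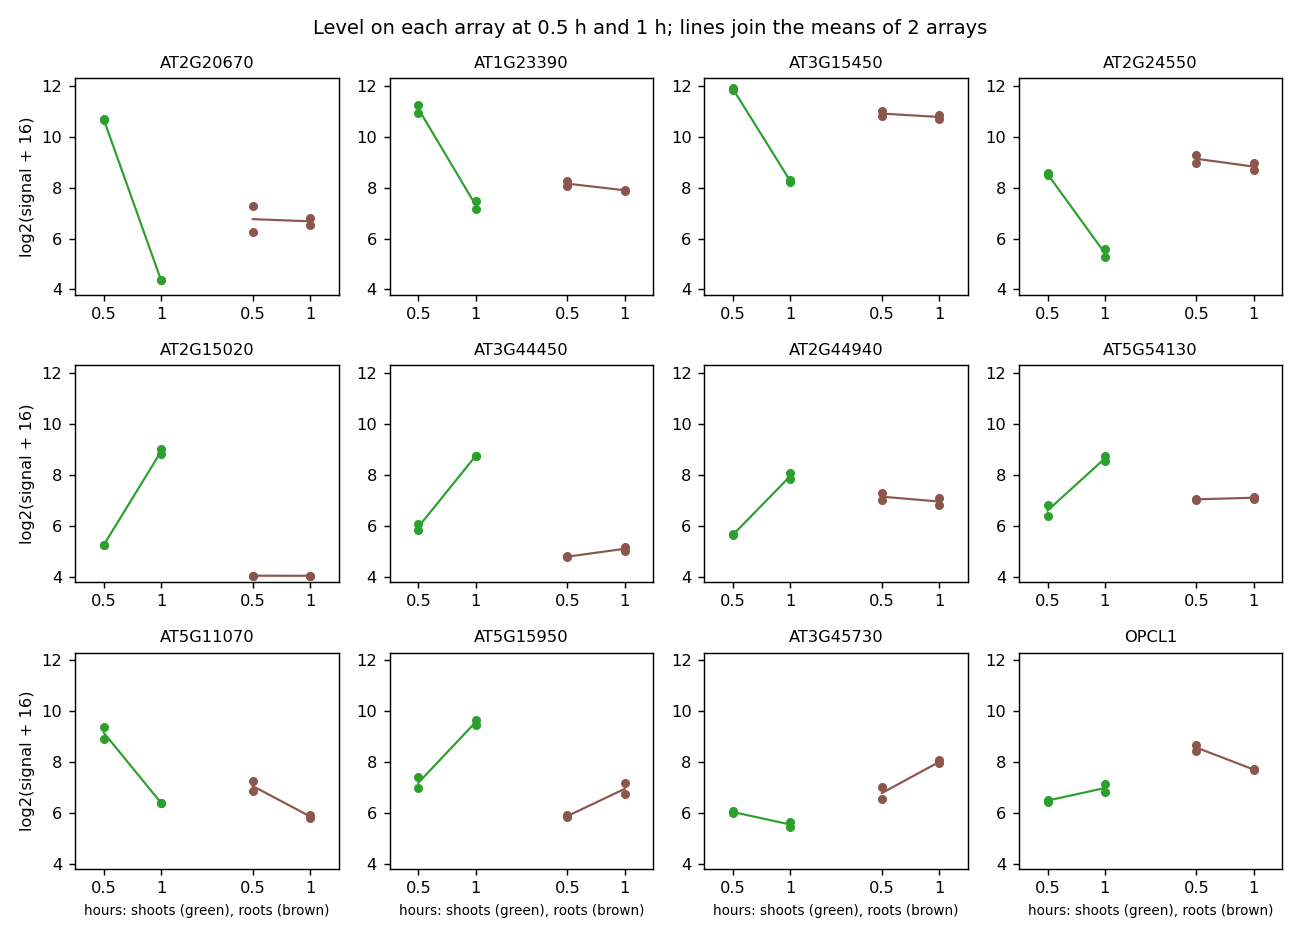
Levels of 12 named genes on each array, log2(signal + 16) on the vertical axis against hours of treatment, with shoots in green and roots in brown and lines joining the means of 2 arrays. The upper row shows falls and the middle row rises of the shoots with nearly level roots, such as AT1G23390 (tissue difference 3.53) and AT5G54130 (-1.98), and the lower row shows 2 genes that moved the same way in both tissues and 2 in which the root change was the larger.

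A dim transcript cannot be seen to fall far, although it can be seen to rise. The root level of the probe sets was therefore counted, over classes of mean signal chosen after the values had been seen. Of the 667 probe sets called in shoots with a passing tissue difference, 176 (26.39%) had a mean root signal below 32, 238 (35.68%) one of 32 to 128, and 253 (37.93%) one of at least 128. Over all probe sets these shares were 42.43%, 32.91% and 24.66%. In 233 of the 667 (34.93%), both root means lay at or above the middle of the 2 shoot means, beside 52.34% of all probe sets. Among 438 falls this was so in 176 (40.18%), and among 229 rises in 57 (24.89%). Over all 1992 probe sets called in shoots, whether or not the tissue difference passed, 873 (43.83%) had root means of this height. Their median shoot change was 0.58 in size, and their median root change in the shoot direction was 0.05. The sign of the shoot change was shared by 64.95% of them, beside 61.85% of the 1992. The tissue difference passed in 26.69% of them, beside 33.48% of the 1992.

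A small set of transcripts moved the same way in both tissues, 21 probe sets, 8 of them named. Their number was 4 without the second root array at 0.5 h, 6 and 7 without the first and the second root array at 1 h, and 10 and 11 without the first and the second shoot array at 1 h. AT5G11070 fell in shoots from 463.5 and 655 to 68.4 and 67.3, and in roots from 136 and 99.7 to 39.6 and 44.4. Neither pair of groups overlapped, and the changes of -2.76 ± 0.19 and -1.19 ± 0.19 (adjusted p = 0.00551 in roots) differed by 1.57 ± 0.27 (adjusted p = 0.00188). AT1G49500 fell in shoots from 2017 and 2499 to 380.5 and 368, and in roots from 628 and 820.1 to 459 and 429, with a tissue difference of 1.86 ± 0.20. For AT5G15950, shoot signals of 152 and 109 became 691 and 794, and root signals of 44.3 and 40.6 became 89.4 and 127. The rise was 2.39 ± 0.17 in shoots and 1.07 ± 0.17 in roots, and the tissue difference of -1.32 ± 0.24 passed (adjusted p = 0.00334). These 3 genes are the named cases of a change that was shared and smaller in roots.

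In the other 5 named genes called in both tissues the tissue difference did not pass. ATL8, of a family of RING ubiquitin ligases, had shoot signals of 72.0 and 51.1 and then 23.3 and 22.7, and root signals of 59.2 and 73.7 and then 20.9 and 36.1. It fell by 0.98 in shoots and by 0.90 in roots, and the tissue difference of 0.07 ± 0.26 had an adjusted p of 0.959. AT2G41160 fell by 0.27 and by 0.36. AT5G27760 rose by 0.40 in shoots and 0.56 in roots, from root signals of 502.5 and 455 to 760.4 and 665. AT5G11460 and AT2G42760 had the larger change in roots, a rise of 1.02 beside 0.49 and a fall of 1.27 beside 0.57, with tissue differences of 0.53 ± 0.20 (adjusted p = 0.216) and -0.70 ± 0.23 (adjusted p = 0.129). The difference of ATL8 ran from -0.17 to 0.32 with 1 array left out, and that of AT2G42760 passed without the first root array at 0.5 h (-0.97, adjusted p = 0.0229). Over all probe sets, named or not, the tissue difference passed in 7 of the 21 called the same way, in 6 of them with the larger change in shoots, and in the 4 called in opposite directions, none of which had a probe set of 1 gene.

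A further 82 probe sets were called in roots and not in shoots, and the tissue difference passed in 43 of them. Their genes are described by values chosen after they had been seen. AT3G45730 rose in roots from 112 and 78.0 to 250.5 and 229.9, while shoot signals of 46.9 and 51.8 were followed by 27.4 and 33.7. The groups separated in both tissues and in opposite directions, but only the root rise of 1.22 ± 0.19 passed, and the tissue difference was 1.72 ± 0.26 (adjusted p = 0.000625). OPCL1, a CoA ligase of jasmonate synthesis, fell in roots from 333 and 393 to 194 and 189, beside shoot signals of 70.9 and 75.5 and then 126 and 95.3. Its tissue difference was -1.36 ± 0.24 (adjusted p = 0.00215) and its root change -0.87 ± 0.17. AT1G26730, with -1.30 ± 0.26, showed the same pattern. EXLA3, an expansin-like cell wall protein, had root signals of 79.4 and 91.3 and then 30.9 and 33.1, and none above 9.88 in shoots, with a tissue difference of -1.19 ± 0.25. It did not pass without the second root array at 0.5 h or the first at 1 h (adjusted p = 0.0586 and 0.0502), nor with a pseudocount of 1 (adjusted p = 0.418). AT1G76640, listed as the calmodulin-like protein CML39, had a root change of -1.63 ± 0.28, but its 2 root arrays at 0.5 h lay apart at 41.7 and 134, before 18.0 and 10.6 at 1 h. As in EXLA3, its shoots could not have shown a fall like that of the roots, with signals of only 0.516 to 0.754. Its tissue difference of -1.63 ± 0.39 (adjusted p = 0.0266) did not pass in 5 of the 8 settings that left out 1 array, with adjusted p up to 0.122, nor with a pseudocount of 1 (adjusted p = 0.226) or with only the 8 arrays (adjusted p = 0.181). GTR1, a glucosinolate transporter, fell in roots from 308 and 398 to 205 and 227 with shoots at 159 to 196, and its tissue difference of -0.82 ± 0.20 (adjusted p = 0.0269) likewise did not pass in 6 of those settings.

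Roots had further passing tissue differences in which they led without a called root change. AT4G27652 (-1.46 ± 0.31), AT5G41280 (1.24 ± 0.26), AT4G30470 (-1.16 ± 0.22), AT1G49980 (1.15 ± 0.29) and AT3G09020 (1.14 ± 0.30) were of this kind. In AT4G30470 the signals crossed, from 115 and 142 to 190.2 and 202.5 in shoots and from 203.5 and 181 to 131 and 112 in roots. Its shoot rise of 0.56 passed and its root change of -0.60 ± 0.15 did not. Leaving out 1 array in turn, AT1G49980 did not pass in any of 8 settings, AT3G09020 in 7, and AT4G27652 and AT5G41280 in 3 each.

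Gene lists were read as counts, beside 2.87% of all genes with a passing tissue difference and medians over all genes of 0.02 for the tissue difference, -0.02 for shoots and 0.00 for roots. In the list of transcripts known to rise in darkness and with low sugar, 8 of 13 measured genes had a passing tissue difference, all positive. Called falls in shoots numbered 9, and none of the 13 passed in roots. Over all 13355 genes, 1072 passed in shoots (8.03%), 598 of them as falls (4.48%), and 45 in roots (0.337%), 18 as rises (0.135%) and 27 as falls (0.202%). The median tissue difference was 1.57, the median shoot change -1.55 and the median root change -0.01. ATG8E, a ubiquitin-like protein of autophagy, fell from 458 and 632 to 177 and 129.9 in shoots and stood at 363 and 309 and then at 370.5 and 432 in roots, with a tissue difference of 1.97 ± 0.27. AKINBETA1, a subunit of the SnRK1 kinase complex, fell from 645 and 686 to 221 and 218 in shoots, with root signals of 179 to 201 throughout, and had 1.57 ± 0.22. BZIP53, a transcription factor of genes for amino acid breakdown, fell from 587 and 696.5 to 194 and 221, with root signals of 618 to 769.7, and had 1.40 ± 0.21. AT3G15450 was described above, and AT3G19680 (2.38), AT1G02660 (2.29), AT3G62550 (2.03) and AT3G10020 (1.62) were the other members that passed. The root means of AT1G02660 and AT3G62550 at 0.5 h were 41.1 and 8.97. Falls of 2.55 and 1.84, as in shoots, could not be reached from there on this scale. MCCA, a subunit of the methylcrotonyl-CoA carboxylase of leucine breakdown, fell by 0.87 in shoots, with a tissue difference of 0.87 ± 0.24 (adjusted p = 0.0643). MCCB, its partner subunit, and IVD, an enzyme of the same pathway, passed in neither tissue, nor did AT2G30600 and AT2G15960. The median is of these 13 genes, which were listed with earlier results of these arrays known, and is no independent evidence.

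Among 10 transcripts of rapid touch and wound responses, 3 fell in shoots (4.48% of all genes) and 2 others in roots (0.202%). EXO, a cell expansion protein also induced by brassinosteroids, fell from 746 and 1324 to 137 and 189 in shoots and kept root signals of 502 to 606, a tissue difference of 2.53 ± 0.39 (adjusted p = 0.000657). WRKY22, a transcription factor of defence, fell from 98.9 and 98.6 to 22.5 and 13.4 in shoots, with root signals of 31.6 to 54.3, and had 1.60 ± 0.24. WRKY53 fell in shoots by 1.06, with a tissue difference of 1.17 ± 0.34 that did not pass (adjusted p = 0.0752). In roots it was GRX480, a glutaredoxin, that fell, from 388 and 521 to 142 and 132, by 1.61, with a tissue difference of -1.05 ± 0.31 (adjusted p = 0.0794), besides AT1G76640. Shoot signals of GRX480 were 22.7 and 14.5 at 0.5 h, from which a fall of 1.61 could not be reached on this scale. The median of the list was 0.37 for the tissue difference, -0.81 for shoots and -0.23 for roots. The 3 passing tissue differences, 2 positive and 1 negative, were those of EXO, WRKY22 and AT1G76640.

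No rise in shoots between 0.5 h and 1 h was called among the 11 measured transcripts listed as induced by DNA damage, which does not exclude small rises. Of them, 3 passed as rises in roots (0.135% of all genes) and none in shoots (3.55%), and 2 had a passing tissue difference, both positive. The list had medians of 0.74 for the tissue difference, -0.16 for shoots and 0.44 for roots. Besides AT3G45730, AT2G45460 rose in roots from 109 and 82.6 to 257 and 185, by 1.07 ± 0.19, with shoot signals of 26.8 and 29.5 and then 28.8 and 41.7. AT3G42860 rose in roots from 29.0 and 24.5 to 65.7 and 53.0, by 0.81 ± 0.17, with no shoot signal above 1.36. Their tissue differences, 0.87 ± 0.27 (adjusted p = 0.104) and 0.79 ± 0.24 (adjusted p = 0.0917), did not pass. AT5G60250 had a passing tissue difference of 0.99 ± 0.24 (adjusted p = 0.0316), with root signals of 18.8 and 18.1 and then 37.2 and 34.1 and shoot signals of 12.2 and 11.8 and then 4.01 and 6.24, but neither tissue passed alone. It did not pass in any of the 8 settings that left out 1 array, nor after quantile normalization (adjusted p = 0.0665 over all arrays), nor with a pseudocount of 64 (0.41, adjusted p = 0.304). The 2 genes with a DNA ligase or recombination role that were measured, ATLIG4 and ATMND1, passed in neither tissue. The loci were listed from recall of published work, some of which may have used these same arrays.

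**Figure D4:**
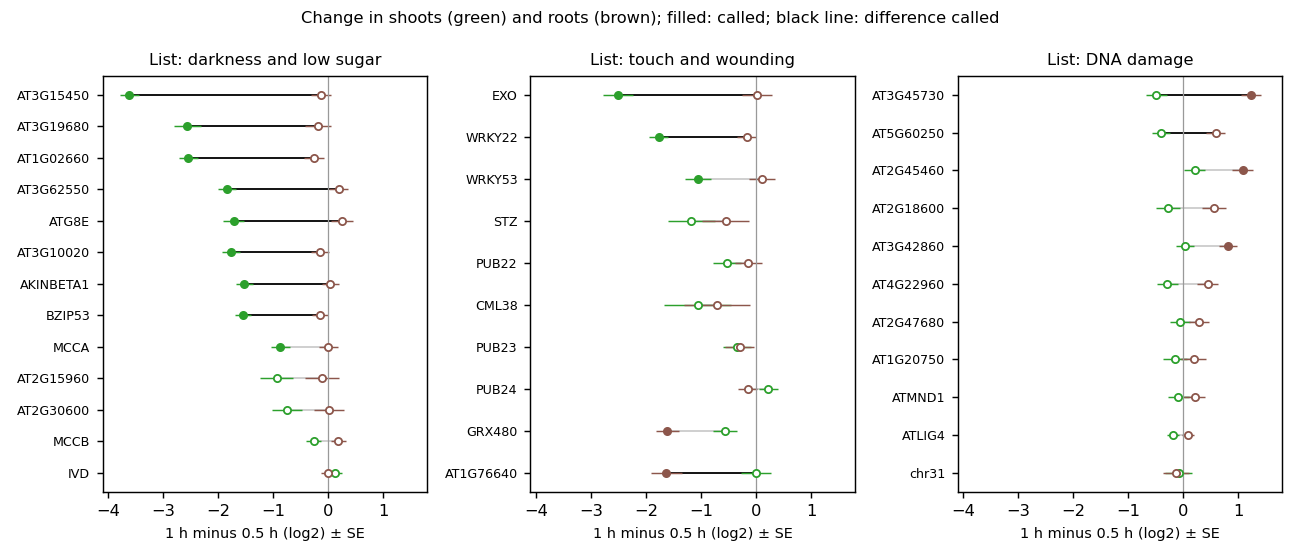
Change from 0.5 h to 1 h of the measured members of 3 gene lists, on the horizontal axis in log2(signal + 16) with standard errors, in shoots (green) and roots (brown). Filled points passed in that tissue and a black line marks a passing tissue difference, which 8 of 13 members of the list for darkness and low sugar had, 3 of 10 of that for touch and wounding and 2 of 11 of that for DNA damage.

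Smaller numbers of members passed in the other lists. Of 12 auxin genes, 2 had a positive tissue difference after a shoot fall, the repressor IAA29 (1.34 ± 0.27) and WES1 (1.06 ± 0.26), an enzyme that joins auxin to amino acids. WES1 did not pass in any of the 8 settings that left out 1 array (adjusted p from 0.0568 to 0.118). Of 52 UDP-glycosyltransferases, 6 passed, 3 in each direction. UGT73B1 fell in shoots from 126 and 89.6 to 19.5 and 21.5 with root signals of 60.4 to 68.0, and had 1.75 ± 0.29. GT72B1, also listed as UGT72B1, rose in shoots from 78.8 and 99.4 to 323 and 282 with root signals of 119.8 to 133, and had -1.64 ± 0.22. UGT84A3 (-1.49 ± 0.23) and UGT72B3 (-1.03 ± 0.22) rose in shoots as well. Of 12 low-oxygen transcripts, AT4G27450 passed (1.90 ± 0.37), falling in shoots from 1189.6 and 1266 to 258 and 283 beside root signals of 1277 to 1644. AT1G33055 of that list fell in shoots by 2.50, with a tissue difference of 2.01 ± 0.56 (adjusted p = 0.0588). EXGT-A3, the cell wall enzyme XTH27, passed among 10 xyloglucan enzymes (1.47 ± 0.20), EXLA3 among 19 expansins, CYP71B26 among 24 cytochromes P450 (-1.50 ± 0.19), WRKY22 among 7 WRKY factors, AT1G76640 among 8 calcium-binding proteins, GTR1 among 12 genes of mineral nutrition and PUB26 among 10 ubiquitin ligase genes (0.93 ± 0.23). UGT72B3 did not pass in 3 and PUB26 in 6 of the settings that left out 1 array, and PUB26 not with a pseudocount of 1 (adjusted p = 0.088) or with only the 8 arrays (adjusted p = 0.13). No member passed in the lists of cytokinin (6), cold and drought (8), glutathione transferases (14), peroxidases (7), pectin enzymes (5), photosynthesis (9), histones (7), flavonoid synthesis (5) and bHLH factors (7). The last list held only genes named as bHLH in the annotation, so MYC4 and SPCH, described below, are not in it. A further 12 lists had fewer than 3 measured genes and give no count.

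Of all genes with a passing tissue difference, 49 carry a symbol or a descriptive name in the annotation, 26 positive and 23 negative, and 42 were led by shoots. Those given here were chosen after their values had been seen. HYH, a bZIP factor of light signalling, rose from 61.5 and 54.4 to 187 and 165 in shoots and stood at 34.6 to 39.99 in roots, with a tissue difference of -1.39 ± 0.20. MYC4, a bHLH factor of jasmonate responses, had -1.29 ± 0.22, with shoot signals of 58.8 and 78.8 and then 207 and 179 and root signals of 68.0 to 85.7. SPCH, which starts the stomatal lineage, went from 4.999 and 12.1 to 35.7 and 33.5 in shoots (-1.08 ± 0.26), with no root signal above 1.28. TRY, a small MYB protein of trichome patterning (-0.89 ± 0.23), AFR, an F-box protein of far-red light signalling (-0.87 ± 0.16), and SWEET13, a sucrose transporter (-1.16 ± 0.27), also rose in shoots and did not pass in roots.

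Among the shoot falls, HAT2, a homeodomain factor induced by auxin, went from 277 and 271 to 82.2 and 78.6 beside root signals of 121 to 179, with a tissue difference of 1.43 ± 0.25. TET8, a tetraspanin, went from 657 and 626 to 161 and 162 beside 608 to 737 in roots, with 1.67 ± 0.25. SDP1, the lipase that opens the breakdown of seed oil, fell by 0.96 in shoots, and its 4 root signals lay between 131 and 137. Its tissue difference of 0.94 ± 0.13 (adjusted p = 0.000245) came with one of the narrowest root intervals given here, from -0.21 to 0.18. BPC1, a factor that binds GAGA repeats, had 1.03 ± 0.15, with a root interval from -0.28 to 0.16.

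Of the 745 probe sets with a passing tissue difference, 357 are not in the annotation table and are unnamed here, 221 positive and 136 negative, and the shoot change was the larger in 318 of them. The 2 largest positive ones were 252367_at (5.53) and 260037_at (4.52), and the 2 largest negative ones 262590_at (-2.49) and 261713_at (-2.42). In 261713_at the tissues went in opposite directions, with a rise of 1.07 in shoots and a fall of 1.36 in roots.

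The later arrays were set beside the early tissue difference as a description, since they are measured from the same arrays at 0.5 h. For the 438 probe sets that fell in shoots with a passing tissue difference, the shoot level lay below that of 0.5 h by a median of 1.13 at 1 h, 0.71 at 3 h, 0.71 at 6 h, 1.08 at 12 h and 0.75 at 24 h. At 3 h, 267 of the 438 were nearer to the level of 1 h than to that of 0.5 h, and at 12 h 349 were. In roots the same probe sets differed from 0.5 h by a median of no more than 0.15 in that direction at any time. For the 229 rises, the shoot level was above that of 0.5 h by 0.92 at 1 h, 0.28 at 3 h, 0.16 at 6 h, 0.35 at 12 h and 0.53 at 24 h, and 71 of 229 were nearer to the level of 1 h at 3 h. The roots lay within 0.08 of their 0.5 h level in the median throughout. Most rises of the shoots at 1 h were thus nearer to the starting level at 3 h, whereas most falls were not.

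In shoots, AT1G23390, AT3G15450 and AT3G44450 were exceptions to these majorities. At 3 h, the falling AT1G23390 and AT3G15450 lay nearer to their level of 0.5 h, and the rising AT3G44450 to that of 1 h. AT1G23390 had a mean shoot signal of 2192 at 0.5 h, 144 at 1 h, 1711 at 3 h, 1612 at 6 h, 276 at 12 h and 1394 at 24 h, and root means between 128 and 270.3 throughout. Its shoot level thus returned at 3 h and was low again at 12 h. AT3G15450 had shoot means of 3775, 292, 1269, 1932, 142 and 607 at these times, and root means of 1918, 1747, 1803, 1561, 858 and 684, so that the roots were lower as well at 12 h and 24 h. AT3G44450 had shoot means of 45.9 at 0.5 h and 412 at 1 h and remained between 137 and 229.7 later. AT3G45730 had root means of 93.5, 240.0, 405, 327, 249.8 and 300.2 and shoot means of 49.3, 30.4, 165, 461, 531 and 302, and the shoots thus reached the root signal between 3 h and 6 h.

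**Figure D5:**
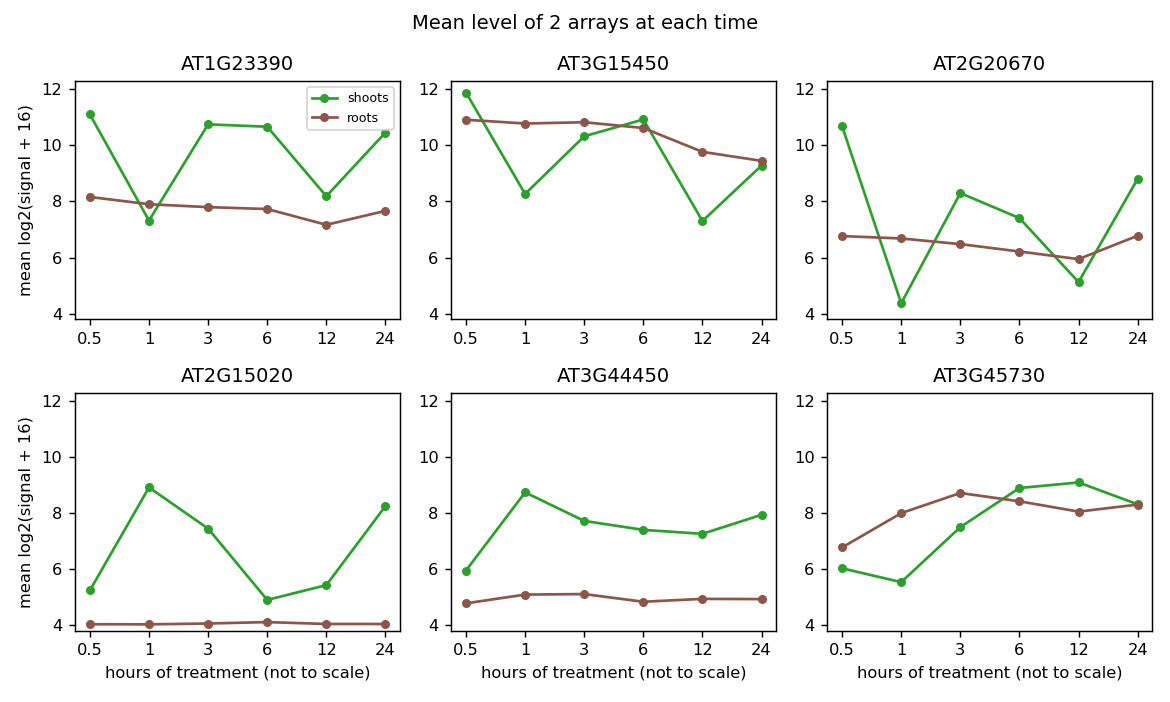
Mean level of 6 named genes at each time of treatment, log2(signal + 16) of the mean signal of 2 arrays on the vertical axis and hours on the horizontal axis, which is not to scale. Shoots are green and roots brown. In AT1G23390 the shoot signal is 144 at 1 h and 1711 at 3 h while roots stay between 128 and 270.3, and AT3G45730 is higher in roots at 1 h and in shoots from 6 h to 12 h.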

How the data were processed

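The authors deposited linear intensities from MAS5, per the submitters' processing notes. The version is not given in the sources used here. Each array held 22810 probe sets with a trimmed mean of 100, as the values show. Without detection calls, which were left aside, low signals and background cannot be told apart. The 64 control probe sets were left out. Values of all 24 arrays were turned to log2(signal + 16) and fitted with limma 3.58.1 in R 4.3.3 as 12 group means with shared empirical Bayes variances and an intensity trend, and p-values were adjusted over 22746 probe sets by the Benjamini and Hochberg method. The call is an adjusted p below 0.05. Probe sets were named through the array's annotation table and the TAIR10.1 gene table. Of them 13513 carried 1 gene, 503 several, 8730 were not listed, and 13436 were matched, to 13355 genes. Where a gene had several probe sets (147 genes), the one with the highest mean stands for it.

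Named genes are the 12 largest passing differences of each sign with separated arrays in the leading tissue, the genes called the same way in both tissues, the 2 to 4 strongest passing members of each list, and the tissue markers. Other genes are said to be chosen after their values were seen. Further list members, among them ATG8E, AKINBETA1, BZIP53, MCCA, WRKY53 and GRX480, carry no such remark but also lie outside the rule. They were described with their values known and were not followed through the alternatives below. Of 36 lists, 24 had at least 3 measured genes. The comparison, the naming rule and the lists were chosen with earlier results of these data known. Replicate numbers were checked for pairing. Deviations of first replicates from their group means correlated across probe sets at -0.107 to 0.0376, so no pairing by number was seen. Taken over all probe sets, these values cannot exclude a pairing that touches few genes. Alternatives were pseudocounts of 1 and 64, quantile normalization, median centring, filters on dim probe sets, variances without trend, only the 8 arrays, a replicate block and each array left out. Tables and figures used Python 3.11.15, numpy 2.4.6, pandas 2.3.3 and matplotlib 3.10.9. Sequences of promoters were not used here.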

Additional observations from a re-analysis of the deposited data

Results flagged for a closer look

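The change from 0.5 h to 1 h differed between roots and shoots, by the test of the difference itself, in 745 probe sets. The named genes concerned are given with their tissue difference, roots minus shoots on the log2 scale. No group had the 4 to 10 arrays that a search for single outlying arrays needs.

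Transcripts that fell in shoots gave positive values, led by AT2G20670 (6.24), AT1G23390 (3.53), AT3G15450 (3.49), AT5G61590 (3.14), AT5G19120 (3.03), AT3G62950 (2.83), AT3G07350 (2.82), AT2G25200 (2.81), AT2G24550 (2.80), AT4G27280 (2.77), AT4G33666 (2.74) and AT4G10910 (2.65). Transcripts that rose in shoots gave AT2G15020 (-3.68), AT3G15310 (-3.07), AT2G27420 (-2.62), AT2G44940 (-2.50), AT3G44450 (-2.48), AT1G76240 (-1.99), AT5G54130 (-1.98), AT2G19650 (-1.95), AT5G42760 (-1.95), AT1G78170 (-1.82), AT4G33040 (-1.79) and AT2G36630 (-1.69). Both tissues moved the same way, the shoots further, in AT5G11070 (1.57), AT1G49500 (1.86) and AT5G15950 (-1.32).

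Among the passing members of gene lists, of which the 2 to 4 strongest of each are given, those led by shoots were EXO (2.53), AT3G19680 (2.38), AT1G02660 (2.29), AT3G62550 (2.03), AT4G27450 (1.90), UGT73B1 (1.75), WRKY22 (1.60), EXGT-A3 (1.47), IAA29 (1.34), WES1 (1.06), PUB26 (0.93), GT72B1 (-1.64), CYP71B26 (-1.50), UGT84A3 (-1.49) and UGT72B3 (-1.03). Those led by roots were AT3G45730 (1.72), AT5G60250 (0.99), AT1G76640 (-1.63), EXLA3 (-1.19) and GTR1 (-0.82). Other genes led by roots were AT4G27652 (-1.46), OPCL1 (-1.36), AT1G26730 (-1.30), AT4G30470 (-1.16), AT5G41280 (1.24), AT1G49980 (1.15) and AT3G09020 (1.14).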

How the results depend on the processing

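No alternative turned the direction of a named tissue difference that passed, which selection on the same arrays made likely beforehand. That of ATL8, which did not pass, lay between -0.17 and 0.32 with 1 array left out and was below 0 in 3 of these settings (-0.12, -0.05 and -0.17). Of 1102 values of 59 named genes under up to 19 settings, 1021 kept direction and call, 76 no longer passed and 2 passed only there (AT2G42760). The count of tissue differences was 603 to 862 over the settings that kept all arrays of 0.5 h and 1 h, and 483 to 911 when 1 array was left out. Calls in shoots numbered 1175 to 2295 with 1 array left out, and 1243 with shoots fitted alone. Calls in roots numbered 46 with a pseudocount of 1, 166 with a pseudocount of 64, 66 without the dimmest 50% of probe sets, 28 with only the 8 arrays, 65 with roots fitted alone, and 25 to 99 with 1 array left out. Probe sets called in shoots with a narrow root interval numbered 1083 with a pseudocount of 1 and 968 to 2009 with 1 array left out, and those called the same way in both tissues 11 with a pseudocount of 1, 5 with only the 8 arrays and 4 to 20 with 1 array left out. The median root change of probe sets called in shoots stayed between 0.02 and 0.06 in the shoot direction. With the replicate number as a block, 685 tissue differences passed, 1877 shoot and 78 root changes, and with the shoot numbers at 1 h crossed, 674. No pairing by these numbers was seen, and one that touches few genes is not excluded. Fitting each tissue alone and the crossed block were chosen after seeing the data. The cause of these shifts was not tested. With an array left out, the lone array of its group is assumed to vary like the other groups. The share of positive tissue differences, 64.3%, was 59.49% to 68.43% over all settings. Precision is limited by 2 arrays per group, and a dim root signal bounds what could be seen to fall.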
